A study of Mus musculus with 6 samples.

Results

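Serpins are a family of proteins, most of them serine protease inhibitors, which trap a protease by offering a loop that the enzyme cleaves and cannot release. Clade A holds secreted serpins made mainly by the liver, such as the antitrypsins (the Serpina1 genes of the mouse) and the antichymotrypsin relatives (the Serpina3 genes). Clade B serpins stay inside the cell, where several inhibit granzymes and cathepsins, and the other clades include regulators of clotting, fibrinolysis, complement and collagen folding. In rodents clades A and B have expanded into rows of neighbouring genes. H3K9me3, trimethylated lysine 9 of histone H3, is a mark of silent chromatin that covers many retrotransposons and some gene clusters.

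The Serpin peaks were those peaks of the deposited list of H3K9me3 peaks specific to WT Bergmann glia (BG) whose gene name begins with Serpin, a clade letter from a to i and a number. The list names for each peak the gene with the nearest transcription start site (TSS) of those it uses, so a peak assigned to a gene can lie outside it. By this rule 62 of 34673 peaks were Serpin peaks. They were assigned to 32 of the 69 Serpin genes in the RefSeq annotation of GRCm38.p6 (equivalent to mm10), and all 32 were protein-coding. No peak was assigned to any of the 6 Serpin pseudogenes. Peaks assigned to Serpina3c and Serpina3m nevertheless lie nearer to the start of a pseudogene, which the list evidently does not use. The pseudogenes can therefore not be read as unmarked.

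H3K9me3 ChIP-seq was run on BG, the radial glia of the cerebellar cortex, from C57BL/6 mice at postnatal day 10. There were 2 libraries from Setdb1 mutant BG, 2 from WT BG and 2 control libraries, whose titles say input and whose antibody label says IgG. Setdb1, a methyltransferase that places H3K9me3, was deleted in the mutants by mGFAP-Cre, which acts in most neural cells of the cerebellum other than Purkinje cells, and BG were sorted by a Nes-GFP reporter. The list merges the libraries into peaks called in WT BG and not in mutant BG, with no value per library. No spread between replicates, no depth and no test of mutant against WT BG can therefore be had for any Serpin gene, and a gene without a peak here may carry H3K9me3 in both genotypes. No label says whether libraries of 1 genotype came from separate animals, and a list of peaks holds no marker with which the identity of the cells could be checked. The score is the peak score of the authors, whose scale no source used here gives, and it is used only to order peaks within the list. Shares are given with 95% Wilson intervals, which cover counting error only and take peaks as independent, which neighbouring peaks and copies of a repeat are not.

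The peak over the start of Serpina1d, 1 of the antitrypsin genes, is shown first because the same stretch exists at each of the other Serpina1 antitrypsin genes without a WT-specific peak. Each line gives 80 bases before and 20 bases after the RefSeq start of Serpina1d, or the stretch that aligns to it, read from the minus strand (chromosome 12, mm10, 5′ to 3′). Capitals mark bases that differ from Serpina1d or are inserted. The stretches lie at chr12:103773614-103773713 (Serpina1d), chr12:103738180-103738279 (Serpina1b), chr12:103828054-103828153 (a copy with no annotated Serpin gene within 5 kb), chr12:103863605-103863704 (Serpina1a), chr12:103904942-103905041 (Serpina1c) and chr12:103956940-103957039 (Serpina1e).
Serpina1d: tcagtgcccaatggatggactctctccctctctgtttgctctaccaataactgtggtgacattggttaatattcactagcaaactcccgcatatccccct
Serpina1b: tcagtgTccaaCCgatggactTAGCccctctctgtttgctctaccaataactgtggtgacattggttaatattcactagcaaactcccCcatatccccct
Unannotated copy: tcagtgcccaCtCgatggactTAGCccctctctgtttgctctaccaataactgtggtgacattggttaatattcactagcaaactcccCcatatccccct
Serpina1a: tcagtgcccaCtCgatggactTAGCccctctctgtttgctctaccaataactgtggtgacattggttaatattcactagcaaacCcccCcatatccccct
Serpina1c: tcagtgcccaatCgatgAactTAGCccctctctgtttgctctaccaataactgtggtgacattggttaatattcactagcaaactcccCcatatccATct
Serpina1e: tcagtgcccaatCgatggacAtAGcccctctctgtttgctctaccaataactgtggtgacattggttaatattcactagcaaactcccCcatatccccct
Serpina1c differed from Serpina1d at 9 of these 100 bases, Serpina1a and Serpina1b at 8 each and the unannotated copy at 7. Serpina1e had 4 mismatches and 2 gapped positions. The differences lay in the first and the last part of the stretch, and the part between was the same in all 6.

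The peak 9.38 kb upstream of Serpina1d and the L1M2 peak 2.43 kb upstream of Serpina1b share the next sequence, which is shown because 2 neighbouring antitrypsin genes each had a WT-specific peak on it. The list names L1M2 at the centre of the Serpina1b peak and no repeat at its copy. The RefSeq sequence masks 0% of the Serpina1b peak. It also masks only 4.79% of the MTD-int peak of Serpina6, so masking does not settle the L1M2 label. The label of the list is kept in the counts below. The shared sequence is the same base for base over 120 bases at chr12:103782963-103783082 and chr12:103740889-103741008 (plus strand, all in lower case because no base differs).
Serpina1d and Serpina1b upstream: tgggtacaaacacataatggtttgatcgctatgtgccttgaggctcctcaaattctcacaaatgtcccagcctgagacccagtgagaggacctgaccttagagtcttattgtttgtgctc
The other promoter peak was at Serpina16, a clade A gene about which little is known. The start of the transcript that the list uses is shown at chr12:103676723-103676822 (minus strand), with its first 10 bases in capitals. The RefSeq gene begins further upstream, at chr12:103676841, so the bases before the capitals lie within the annotated gene.
Serpina16: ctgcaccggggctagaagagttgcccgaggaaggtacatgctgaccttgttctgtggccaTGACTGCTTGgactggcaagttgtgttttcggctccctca

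The central 120 bases of the peaks with the highest scores are shown with CpG in capitals, because they come from unlike sequence. The first is on an IAPEz-int endogenous retrovirus near Serpinb9g (chr13:33443413-33443532). The peak assigned to Serpinh1 is at the end of a transcript of Map6 (chr7:99320727-99320846). The last is the stretch upstream of Serpina1b that the list names L1M2 (chr12:103740557-103740676). All are shown on the plus strand.
Serpinb9g peak: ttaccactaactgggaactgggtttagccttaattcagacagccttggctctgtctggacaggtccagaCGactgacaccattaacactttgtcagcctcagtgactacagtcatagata
Serpinh1 peak: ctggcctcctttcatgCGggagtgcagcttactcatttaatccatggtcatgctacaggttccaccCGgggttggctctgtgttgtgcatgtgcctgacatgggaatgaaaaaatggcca
Serpina1b peak: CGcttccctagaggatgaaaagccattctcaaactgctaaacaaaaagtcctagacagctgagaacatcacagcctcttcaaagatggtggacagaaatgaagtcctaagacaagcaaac
Over the whole peaks, bases in a CpG made up 4.33% at Serpinb9g, 5.27% at Serpinh1 and 1.42% at Serpina1b. The median was 2.38% over the 62 Serpin peaks and 2.40% over the 34600 peaks on assembled chromosomes.

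Serpin genes had peaks about as often as other genes. Of 63 protein-coding Serpin genes, 32 had a peak (50.8%, 95% interval 38.8 to 62.7%), against 50.9% of the 21031 protein-coding genes with a curated RefSeq transcript. Serpin genes were shorter, with a median of 11.1 kb against 17.7 kb for all protein-coding genes. Among the 31 Serpin genes within the interquartile range of Serpin gene length (7.95 to 20 kb), 18 had a peak (58.1%, 40.8 to 73.6%), against 45.9% of all protein-coding genes of such length. Genes with 3 or more peaks made up 6 of the 63 Serpin genes (9.52%, 4.44 to 19.3%), against 16.5% of all. All 3 shares of all genes lie within the Serpin intervals. Of the Serpin genes with a peak, 14 had 1 peak, 12 had 2, 3 had 3, 2 had 4 and 1, Serpine2, had 7.

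Scores of the Serpin peaks ran from 4.81 to 38.2, with a median of 7.06, the same as the median of the list. The highest was the IAPEz-int peak assigned to Serpinb9g, a mouse relative of the granzyme B inhibitor Serpinb9, at 38.2, and 0.254% of the list scored as high or higher. Next came a peak assigned to Serpinh1, which encodes the collagen chaperone Hsp47, at 14.1, and peaks of the antitrypsin genes Serpina1b at 13.8 and Serpina1e at 13.2. A peak of Serpine2 and the peak of Serpine3 both scored 12.2. Apart from the Serpinb9g peak, the scores of all clades overlapped.

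**Figure D1:**
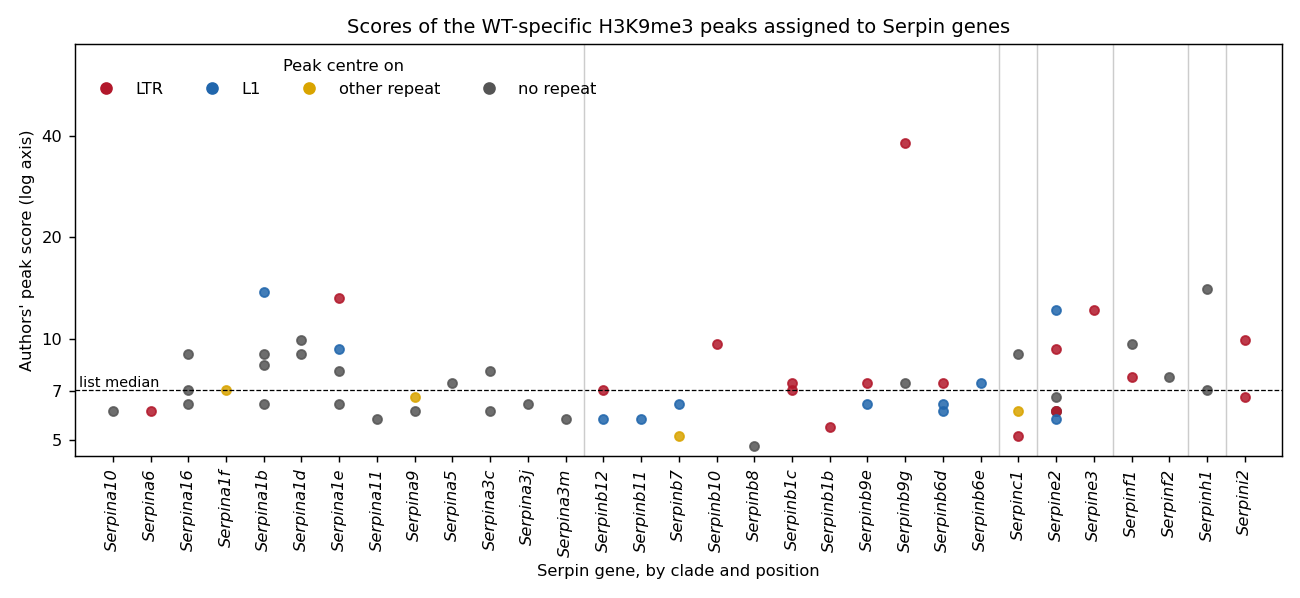
Peak score of the authors (log axis) of the Serpin peaks, by gene in order of clade and position, with grey lines between clades and colour for the repeat at the peak's centre. The IAPEz-int peak of Serpinb9g at 38.2 stands above the rest, which lie between 4.81 and 14.1 around the list median of 7.06 (dashed).

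Clade A peaks lay mostly outside repeats and clade B peaks mostly on them. In clade A, 6 of 24 peaks were centred on a repeat (25%, 12 to 44.9%), and in clade B 16 of 18 were (88.9%, 67.2 to 96.9%), against 54.0% of all peaks. The intervals of the 2 clades do not overlap, and each lies to its own side of the share of all peaks. No test was run, since peaks of 1 cluster are not independent. All clade A peaks lay in 1 gene cluster, of whose bases 26.8% were soft-masked as repeats. Clade B peaks all lay in 2 clusters, with 43.5% and 47.2% soft-masked. The part of this sequence background in the difference was not tested. Clades C to I had 10 of 20 peaks on a repeat (50.0%, 29.9 to 70.1%), so that the 62 Serpin peaks as a whole, at 51.6% (39.4 to 63.6%), were close to the list.

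Clade B peaks were divided between LTR elements and L1. LTR elements, the class of endogenous retroviruses, lay under 8 of 18 clade B peaks (44.4%, 24.6 to 66.3%) and 2 of 24 clade A peaks (8.33%, 2.32 to 25.8%), against 26.6% of all peaks. L1, the LINE family that is still mobile in the mouse, lay under 7 of 18 clade B peaks (38.9%, 20.3 to 61.4%) and 2 of 24 clade A peaks (8.33%, 2.32 to 25.8%), against 16.3% of all. The clade B repeats included 5 ERVK peaks, whereas clade A had none of 24, which allows a share of up to 13.8% by the Wilson interval. Over all Serpin peaks LTR, ERVK and L1 shares were 27.4%, 14.5% and 17.7%, against 26.6%, 13.0% and 16.3% of the list.

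**Figure D2:**
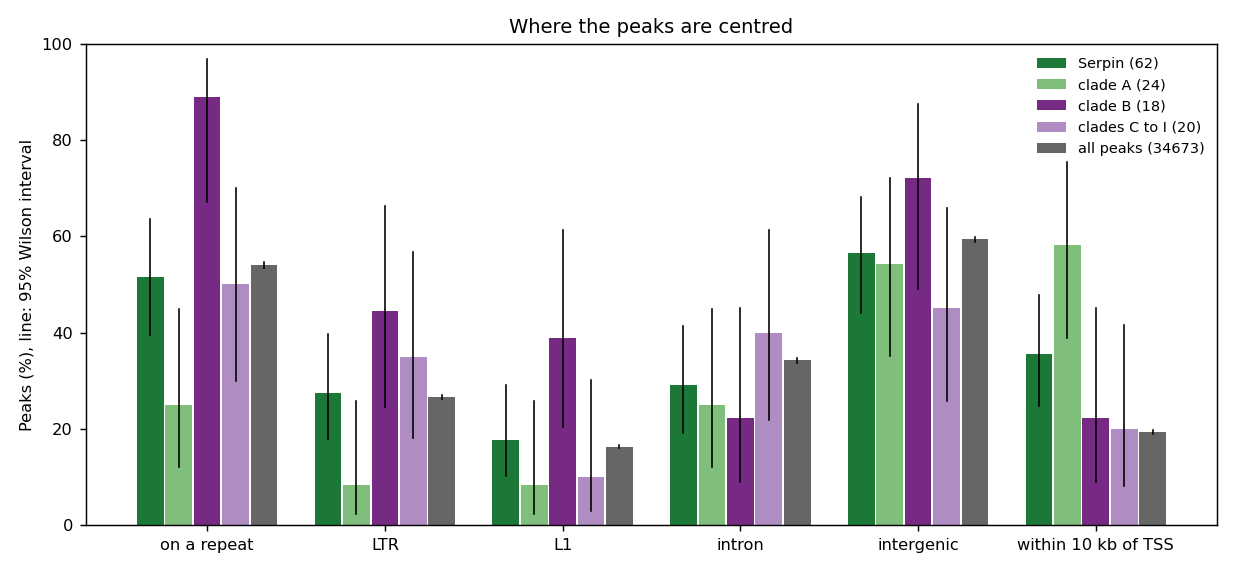
Percent of peaks centred on a repeat, an LTR element, an L1 element, in introns, between genes, and within 10 kb of the TSS, for all Serpin peaks, clade A, clade B, clades C to I and all peaks of the list, with 95% Wilson intervals as lines. Clade A is lowest on repeats (25%) and highest within 10 kb (58.3%), and clade B is highest on repeats (88.9%).

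Serpin peaks lay closer to their TSS than the list as a whole. The median distance was 15.3 kb for Serpin peaks and 37.4 kb for all peaks. A peak goes to the gene with the nearest TSS of those the list uses, so the spacing of genes limits these distances. All 24 clade A peaks, for example, lay in a cluster of 28 Serpin genes over 798 kb. The part of gene spacing in the differences below was not tested. Within 10 kb lay 22 of 62 Serpin peaks (35.5%, 24.7 to 47.9%), against 19.4% of all, and beyond 50 kb lay 8 (12.9%, 6.69 to 23.4%), against 42.4% of all. By clade, the medians were 9.40 kb in clade A, 25.1 kb in clade B and 22.2 kb in clades C to I, and 14 of 24 clade A peaks lay within 10 kb (58.3%, 38.8 to 75.5%). Of the 8 peaks beyond 50 kb, 6 belonged to Serpine2, 1 to Serpini2 and 1 to Serpinb6e.

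**Figure D3:**
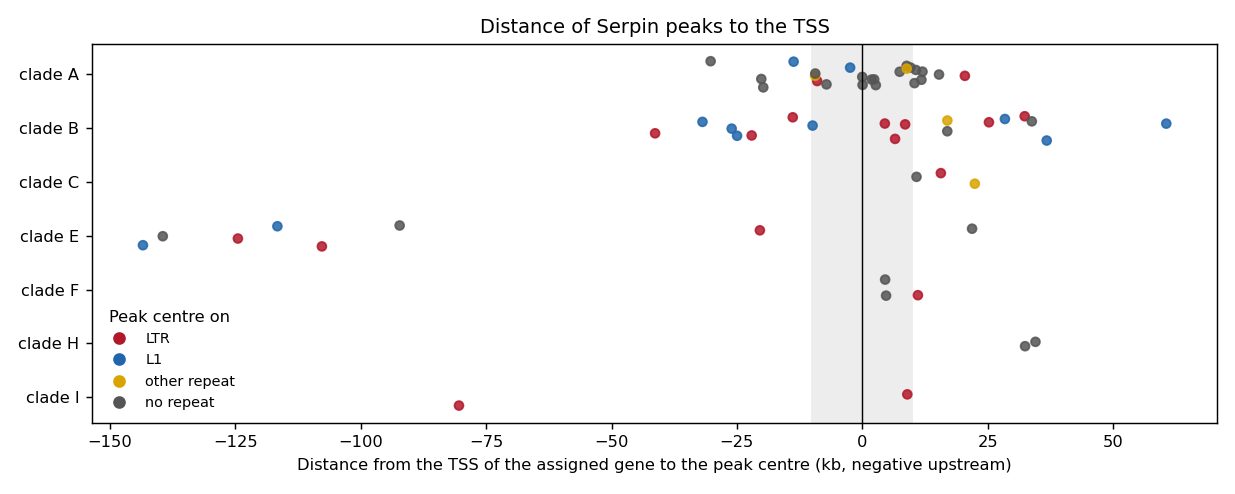
Distance from the TSS of the assigned gene to the centre of the Serpin peaks (kb, negative upstream), by clade, with colour for the repeat at the centre and the band within 10 kb shaded. Clade A peaks lie within 30.2 kb, while 6 peaks of Serpine2 in clade E lie 92.3 to 143 kb upstream.

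By the class of the peak's centre, 35 Serpin peaks were intergenic (56.5%, 44.1 to 68.1%), against 59.4% of the list, and 18 were intronic (29.0%, 19.2 to 41.3%), against 34.2%. The remaining 9 comprised 2 promoter peaks, 4 at a transcription termination site (TTS), 2 in exons and 1 in a 3′ UTR. Promoter peaks were 3.23% of Serpin peaks (0.889 to 11%), against 0.805% of the list. TTS peaks were 6.45% (2.54 to 15.4%), against 1.29%. Both counts are small, and 1 TTS peak and the 3′ UTR peak belong to Map6, not to a Serpin gene. In all, 23 of the 62 peaks were centred inside the Serpin gene they were assigned to. The other 39 were not.

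The clade A cluster on chromosome 12 held the most peaks. It spans 798 kb (chr12:103616675-104414334) with 28 Serpin genes, 23 of them protein-coding. All 24 clade A peaks lay in it and were assigned to 13 of its genes, which gives 30.1 peaks per Mb, against 14.3 over chromosome 12. Of 145 windows of the same length on this chromosome, 17 held as many peaks or more. Of its bases 26.8% were soft-masked as repeats, against 36.4% of the genome. Serpina7, the thyroxine-binding globulin gene on chromosome X and the 1 clade A gene outside the cluster, had no peak.

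At the proximal end of the cluster lie genes for regulators carried in plasma. Serpina10, the protein Z-dependent protease inhibitor, had 1 peak of score 6.10 in exon 2 of 5, 2.69 kb inside the gene. Serpina6, corticosteroid-binding globulin, had 1 of 6.10 on an MTD-int element 9 kb upstream. Serpina16 had 3, at its promoter (7.06, 52 bp after the TSS), in its last intron (6.42) and 1 classed as TTS (8.99). The TTS peak (chr12:103667597-103668251) lies wholly past the end of the gene at chr12:103668808. Serpina1f, a relative of the antitrypsins, had 1 of 7.06 on an RSINE1 element 9.42 kb upstream.

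The antitrypsin genes of the Serpina1 row held 10 peaks, and they were unevenly spread. Serpina1b had 4, with scores of 8.99 at 15.3 kb, 8.34 at its TTS and 13.8 on L1M2 2.43 kb upstream. Its other peak, of 6.42, lay 7.14 kb upstream in the gene Gm17042. Serpina1d had 2, of 9.95 at its promoter (centred 6 bp before the TSS) and 8.99 at 9.38 kb upstream. Serpina1e had 4, of 13.2 on an MLTR14 element 20.5 kb from its TSS, 6.42 at 12 kb, 8.02 in its last intron and 9.31 on Lx5c 13.7 kb upstream. Serpina1a and Serpina1c had none. Between the upstream peak of Serpina1d and the MLTR14 peak, 153 kb held no peak, the longest such stretch between neighbouring peaks of the cluster, and both genes without a peak lie in it.

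The Serpina1 genes are near copies, so the location of reads bears on this difference. A read with several matches was kept at its best location by the authors. Of all 150-base stretches in a gene and 5 kb on either side, 89.2% were unique in the genome at Serpina1d, 94.3% at Serpina1b and 95.7% at Serpina1e, against 88.9% at Serpina1c and 90.7% at Serpina1a, which had no peak. Genes with and without a peak thus overlapped in uniqueness. At the Serpina1d promoter peak every 150-base stretch was unique, as it was at the Serpina1e peaks in the last intron and on Lx5c. The other 7 of the 10 peaks were not fully unique. At Serpina1d the share was 62.8% at the upstream peak. At Serpina1b it was 47.4% at 7.14 kb upstream, 82.4% at the TTS, 86.6% at the L1M2 peak and 95.6% at 15.3 kb. At Serpina1e it was 85.8% at 12 kb and 87.8% at the MLTR14 peak. Reads within these 7 peaks can fit more than 1 place, and their part in the peaks was not tested.

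Copies of the peaks were searched within the 3 Serpin clusters at 85% identity over at least 80% of the peak. Of the 30 Serpin peaks outside repeats, 7 had such copies, 33 in all, and 1 copy held a WT-specific peak, the Serpina1b copy (98.4% identity) of the Serpina1d upstream peak. A copy beside a peak could count as holding none. An example is the Serpina1b copy of the Serpina1e last-intron peak. It starts at chr12:103728252, just past the end of the Serpina1b TTS peak at chr12:103728025. The Serpina1d promoter peak had copies at Serpina1b (94.6%), Serpina1a (94.2%), Serpina1c (89.9%) and Serpina1e (92.2%) and the unannotated copy (95%), none with a peak. These are the stretches printed above. The peak 30.2 kb upstream of Serpina3c had 4 copies at 85.9 to 87.2% identity among the Serpina3 genes, also without a peak. Peaks on repeats had copies with a peak too, for example the IAPEz-int peak of Serpini2 within that of Serpinb9g (99.2%), the MERVL-int peak of Serpine2 at a Serpinb1c peak (97.6%) and the L1Md_T peak of Serpinb6d at that of Serpinb6e (96.4%). Unique 150-base stretches made up 0% of the Serpini2, Serpine2 and matched Serpinb1c peaks and 16% of the Serpinb9g peak. The share was 97.2% at Serpinb6d and 51.1% at Serpinb6e. Reads in such peaks can fit more than 1 place, and their part in these pairs was not tested.

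**Figure D4:**
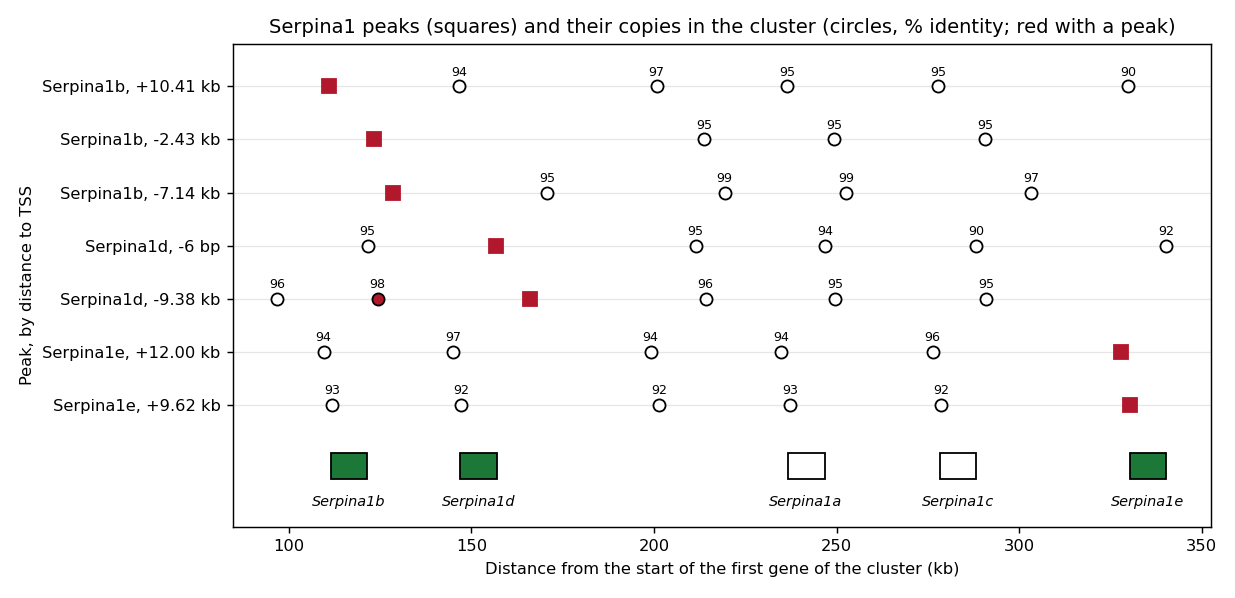
Serpina1 peaks with a copy in the cluster (squares, each row labelled by gene and distance to its TSS) and their copies (circles, labelled with percent identity and red where the copy holds a peak), along the chromosome 12 cluster in kb from its first gene. The 1 red circle is the 98.4% copy of the Serpina1d upstream peak next to Serpina1b. The other circles are empty, around Serpina1b, Serpina1d and Serpina1e as well as around Serpina1a and Serpina1c.

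The distal part of the clade A cluster was more sparsely marked. Serpina11 had 1 peak (5.78), Serpina9 had 2 in intron 2 (6.10 and 6.74, the higher on a B3 element), and Serpina12, the adipokine vaspin, had none. Serpina5, the protein C inhibitor, had 1 of 7.38 in intron 2, 1.85 kb inside the gene, which with the promoter peaks of Serpina1d and Serpina16 made up the 3 Serpin peaks within 2 kb of a TSS (4.84%, 1.66 to 13.3%), against 3.38% of the list. Among the Serpina3 genes, Serpina3c had 2 upstream peaks (8.02 and 6.10), Serpina3j had 1 in intron 1 (6.42) and Serpina3m had 1 upstream (5.78). The others had none, among them Serpina3n, known as a marker of reactive astrocytes, and Serpina3a, Serpina3b, Serpina3f, Serpina3g, Serpina3i and Serpina3k. The 2 Serpina3c peaks lie on either side of the pseudogene Serpina3d-ps (chr12:104175571-104178310). The Serpina3m peak lies just past the pseudogene Serpina3l-ps (chr12:104357990-104363742). These peaks are nearer to the starts of the pseudogenes than to those of Serpina3c and Serpina3m.

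**Figure D5:**
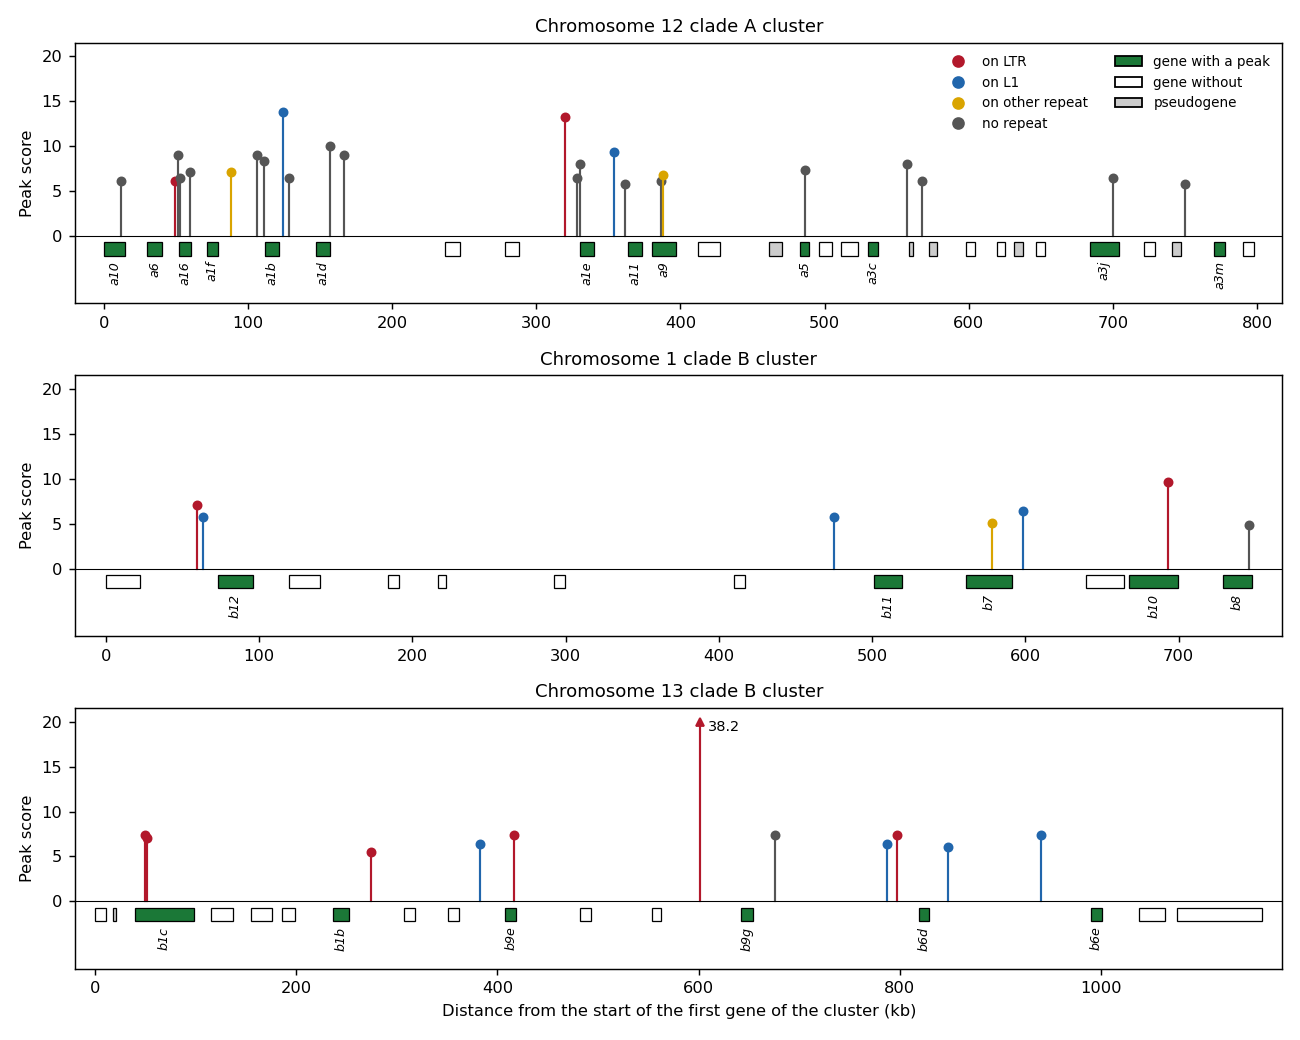
The 3 Serpin clusters, in kb from the start of their first gene, with genes as boxes (green with a peak, white without, grey for pseudogenes, names shortened to clade letter and number) and Serpin peaks as stems whose height is the authors' score and whose colour is the repeat at the centre. The chromosome 12 clade A stems are mostly grey (6 of 24 on a repeat), the clade B stems mostly red or blue, and the triangle marks the Serpinb9g peak of 38.2, above the axis.

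The clade B cluster on chromosome 1 was marked at about the density of its chromosome. It spans 748 kb (chr1:106861175-107608978) with 12 genes, of which 5 had 7 peaks in all, or 9.36 per Mb against 10.9 over chromosome 1. As many peaks or more were held by 137 of 256 windows of this length. Repeats lay under 6 of the 7 peaks, and 43.5% of its bases were soft-masked.

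Serpinb12 had 2 of these peaks upstream, on RLTR10F (7.06, 13.9 kb) and Lx (5.78, 9.91 kb), and Serpinb11 had 1 on L1_Mus4 (5.78, 26 kb upstream). Serpinb7, also called megsin, had 1 on RMER1B in intron 4 (5.13) and 1 on Lx5 (6.42, 36.8 kb from its TSS). Serpinb10 had 1 of 9.63 on RMER13A2, which the list classes as intergenic and which lies within the RefSeq gene. Serpinb8 had the lowest score of all Serpin peaks, 4.81 at its TTS, and this was the 1 peak of the cluster outside repeats. No peak was assigned to Serpinb5 (maspin), Serpinb2 (the urokinase inhibitor PAI-2), Serpinb13 or the 4 Serpinb3 genes, the squamous cell carcinoma antigen relatives.

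The clade B cluster on chromosome 13 held 11 Serpin peaks at 6 of its 16 protein-coding genes. It spans 1161 kb (chr13:32842092-34002794), with 10.3 peaks per Mb against 13.5 over chromosome 13, and 63 of 100 windows of this length held as many or more. Of the 12 peaks inside it 11 were on a repeat, and 47.2% of its bases were soft-masked. The 1 peak inside it that is not a Serpin peak, on L1Md_F3 with a score of 16, is assigned to the non-coding gene Gm6093.

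Serpinb9g had the IAPEz-int peak, 2122 bp wide and 41.3 kb upstream of the gene, and a peak of 7.38 at 33.8 kb from its TSS that lies in the pseudogene Gm11387 and on no repeat. At the IAPEz-int peak 16% of the 150-base stretches were unique. Serpinb1c, of the leukocyte elastase inhibitor group, had 2 peaks on MERVL-int in intron 2, scored 7.38 and 7.06, with 88.6% and 0% unique stretches. Serpinb6d had 3, on L1Md_T (6.42), ERVB4_1B-LTR_MM (7.38) and L1_Mus3 (6.10), at 22.1 to 31.9 kb.

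Serpinb9e had 1 peak on L1Md_F2 (6.42, 25 kb upstream) and 1 on RMER17A2 in its last intron (7.38), and Serpinb1b had 1 on MTB (5.46, 32.4 kb). The peak of Serpinb6e, on L1Md_T 60.6 kb from its TSS, lies in the pseudogene Vmn2r-ps94. Serpinb9, the inhibitor of granzyme B, had no peak, nor had Serpinb1a, Serpinb6a, Serpinb6b, Serpinb6c, Serpinb9b, Serpinb9c, Serpinb9d, Serpinb9f or Serpinb9h. In the last of these 60.1% of the 150-base stretches were unique, the lowest share of any Serpin gene. Over protein-coding Serpin genes the median share was 99.8% in the 32 with a peak (75.1 to 100%) and 99.5% in the 31 without (60.1 to 100%).

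Outside the clusters 8 of 12 Serpin genes had 20 peaks. Serpine2 encodes glia-derived nexin, an inhibitor of thrombin and urokinase made by glia, and had the most of any Serpin gene. Its intron 1 held 1 peak of 6.10 on no repeat. The other 6 lay upstream over 51.7 kb, from 92.3 to 143 kb from the TSS, and 4 of them were on MERVL-int (9.31), L1Md_F3 (12.2), RLTRETN_Mm (6.10) and L1Md_A (5.78). None of the 150-base stretches of the MERVL-int peak was unique and 37.5% of those of the L1Md_A peak were, while all were unique in the other 4.

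Serpine3, also of clade E, had 1 peak on IAPEz-int, 20.4 kb upstream, of which no 150-base stretch was unique. This peak lies in the gene Gm52153.

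Serpinc1, antithrombin, had 3 peaks within the gene, in exon 3 (8.99), on ORR1C2 in intron 4 (5.13) and on B1_Mur3 in intron 7 (6.10). The neighbours Serpinf1 and Serpinf2 on chromosome 11 encode pigment epithelium-derived factor, which is neurotrophic and anti-angiogenic, and alpha-2-antiplasmin. Serpinf1 had 1 peak in intron 1 (9.63) and 1 on MTD in intron 6 (7.70), and Serpinf2 had 1 in intron 8 (7.70). All 6 peaks of these 3 genes lay inside the gene.

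Both peaks of Serpinh1 lay in Map6, the gene of a microtubule-stabilising protein, at 32.5 and 34.5 kb from the Serpinh1 TSS. The higher, 909 bp wide with a score of 14.1, is at the end of a Map6 transcript. The other (7.06) is in the 3′ UTR of that transcript. Every 150-base stretch of both was unique. Serpini2, pancpin, had 1 peak on RLTR10B2 in intron 2 (6.74) and 1 on IAPEz-int 80.4 kb upstream (9.95), which lies in Wdr49. No 150-base stretch of this IAPEz-int peak was unique. No peak was assigned to Serpini1, the neuroserpin gene that neurons express, to Serping1, the C1 inhibitor, or to Serpind1, heparin cofactor II.

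Serpin peaks tended to have neighbours. Another peak of the list lay within 10 kb of 35 of the 62 (56.5%, 44.1 to 68.1%), against 33.3% of the 34600 peaks on the chromosomes used. Fewer than 90% of the 150-base stretches were unique in 16 Serpin peaks (25.8%, 16.6 to 37.9%), against 14.8% of all.

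Nuclear factor I is a family of transcription factors active in glia, and its half-site TTGGCA was searched on both strands. Of the 53 Serpin peaks of the standard width of 500 bp, 10 held it (18.9%, 10.6 to 31.4%), against 26.4% of all peaks of that width. Its palindrome, TTGGC and GCCAA with any 5 bases between, was in none of the 53, which allows a share of up to 6.76%, and in 0.03% of all. Over all widths there were 17 matches in 13 peaks of 10 genes. The MERVL-int peak of Serpine2 on chromosome 1 and the lower-scored of the 2 MERVL-int peaks of Serpinb1c on chromosome 13 held the same match, shown here because copies of 1 element on different chromosomes carry it (motif in capitals, minus strand, chr1:79966402-79966407 and chr13:32893873-32893878 for the motif).
Serpine2 and Serpinb1c MERVL-int: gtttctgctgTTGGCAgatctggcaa
Serpinh1 end of Map6: acaacagcttTTGGCAtctgagcctc
Serpina9 intron 2: cctgcttgtcTTGGCAaatgtcctcg
The last 2 lines are matches outside repeats, at chr7:99320415-99320420 (plus strand) and chr12:104002826-104002831 (minus strand). The end of Map6 here is that of the Map6 transcript named in the list. A match is a string of letters and not a measured site.

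Proteases, cofactors and receptors that serpins act on or with had peaks in a share near that of Serpin genes. Of 33 listed, 32 were matched and 16 had a peak (50.0%, 33.6 to 66.4%), against 50.9% of all protein-coding genes. Among clotting proteases F7 had 4 peaks, F10 had 3 (the nearest 2.92 kb from its TSS), F9 had 2 and F11 and Proc had 1 each, while F2 (prothrombin, the target of antithrombin) and F12 had none. In fibrinolysis Plg had 2 and Plat, Plau and Plaur 1 each. Of the complement proteases Masp1 had 3 and Masp2 had 1 of score 12.8, 81 bp from its TSS, while C1ra and C1s1 had none.

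Agt, a serpin by descent that is the precursor of angiotensin, had 3 peaks. St14 had 2 and Hpn, Prss1 and Casp1 had 1 each. No peak was assigned to the granule proteases Gzma, Gzmb, Elane, Ctsg, Prtn3 and Cma1, to Ctsl, Klk1, Klkb1 or Tmprss6, or to Lrp1 and Vtn, a clearance receptor and a cofactor of serpins.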

How the data were processed

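H3K9me3 ChIP-seq libraries of mutant and WT BG (2 each) and 2 control libraries were grouped by title. The authors sequenced 150-base paired reads, aligned them to mm10 with Bowtie2 (2.2.8), gave reads with several matches the best location, called peaks with HOMER (4.10.1 in the submitters' processing notes) at a false discovery rate of 0.001 and 4-fold over a local background of 10 kb, and kept those called in WT and not in mutant BG. The heading of the list does not settle what background was used. The deposited file holds the authors' peak score and, as other columns, position, width, class, repeat, distance and gene, with no value per library, so depth and its precision are unknown.

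Members and lists were chosen with earlier results of these data known. Peaks were joined by gene name to RefSeq GRCm38.p6. All 62 transcripts matched, and 59 distances agreed within 2 bp (the 3 of Serpinc1 did not, and the listed distances are given). Clusters were 3 or more Serpin genes with gaps of at most 500 kb. Uniqueness is the share of 150-base stretches found once in the assembly, tested on simulated data. Copies were found with BLAST 2.17.0 (E-value at most 1e-10) and aligned with Biopython 1.88. Python 3.11.15, pandas 2.3.3 and matplotlib 3.10.9 were used. Named genes were those with 3 or more peaks, those of the 5 highest scores, those with a peak within 2 kb or in a promoter, exon, UTR or TTS, all cluster members and all genes outside clusters, and listed partners. No test across genes was run. Alternatives were a score minimum, repeats left out, distance limits, merged neighbours, standard width, gene bodies with 5 kb flanks and cluster gaps of 1 Mb, and, chosen after seeing the data, non-intergenic peaks and peaks at least 90% unique. The values of 1 Serpin gene are not reported here and are left out of the plots of scores and distances, while counts over all members include it.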

Additional observations from a re-analysis of the deposited data

How the results depend on the processing

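Of 70 alternative values, 20 moved, which for counts means by over 1.5 times and for shares and the median score out of the 95% interval of the main value. The other 50 stayed within these wide limits, among them 22 Serpin genes with a peak at or above the median score, 23 in gene bodies with 5 kb flanks, 46 Serpin peaks that were at least 90% unique (chosen after seeing the data), 4 genes with 3 or more peaks at the standard width and an LTR share of 36.4% (main 27.4%) at or above the median score. The 32 Serpin genes with a peak became 19 without peaks on repeats, 17 within 10 kb of the TSS and 19 without intergenic peaks, the last chosen after seeing the data. The 62 Serpin peaks became 33 at or above the median score, 30 outside repeats, 22 within 10 kb, 34 in gene bodies with 5 kb flanks and 27 without intergenic peaks. Genes with 3 or more peaks became 2 (main 6) at or above the median score, 3 outside repeats and 3 in gene bodies. In gene bodies the share on a repeat was 35.3% (main 51.6%), on L1 2.94% (17.7%) and in introns 52.9% (29.0%). Within 10 kb the L1 share was 9.09% and the intron share 54.5%. Peaks in the Serpin clusters became 23 of score at or above the median and 20 outside repeats. The 16 partner genes with a peak became 10 by score and 6 within 10 kb. These follow from keeping fewer peaks or peaks near genes. Shares of all genes were not computed under these settings, so the counts do not show how Serpin genes compare with other genes there. No paired analysis was possible because the list has no value per library, and no replicate could be left out for the same reason.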
